A study of Homo sapiens with 2 samples.

Results

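Translation initiation and elongation factors are the proteins that bring the ribosome to an mRNA, start it at the right codon, feed it with aminoacyl-tRNA and release the finished chain. Their transcripts were examined in H1299, an established human non-small cell lung cancer line, grown with or without 5 mM metformin, a biguanide drug for type 2 diabetes. The 46 genes were taken by name: 35 initiation factors, 5 genes named as subunits or partners of eEF1, eEF2 and its kinase, 2 release factors and 2 poly(A)-binding proteins. All 46 were found by NCBI gene ID among the 27685 gene IDs of the deposited tables. The data were 1 RNA-seq library of untreated cells (control) and 1 library of metformin-treated cells, both from cultures at passages 10 to 15. The sources used here do not say how long the cells were treated. With 1 library per group there is no replicate check, so no test was possible and no p-value is given. The 95% intervals printed with ratios cover the counting of reads only, not the variation between cultures.

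Values are TPM, a transcript level corrected for length and scaled to the total of the library, so a gain of abundant transcripts lowers the rest. The aligned bases came to 5.80 Gb in the control library and 6.40 Gb in the metformin library. A gene counted as measured at 1 TPM or more in at least 1 library, which 14078 genes reached, all 46 factors among them. Levels of the carcinoma and mesenchymal markers KRT8, KRT18 and VIM were between 269 and 4962 TPM, whereas the epithelial marker EPCAM and the markers of blood, endothelial, stromal and liver cells stayed under 1 TPM, with the exception of the lysosomal gene CD68 at 148 and 115 TPM. In these bulk samples a change in the mix of cells and a change in RNA per cell cannot be told apart.

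Initiation begins when eIF1, eIF1A, eIF3 and eIF5 on the small ribosomal subunit receive eIF2 with GTP and the initiator tRNA, while eIF4F binds the mRNA cap. After each round eIF2 is left with GDP, and eIF2B exchanges it for GTP; phosphorylation of eIF2 by stress kinases blocks that exchange and is the entry to the integrated stress response. During elongation eEF1A delivers aminoacyl-tRNA, the other eEF1 subunits recharge eEF1A with GTP, and eEF2 moves the ribosome on by a codon. Metformin is known to lower the activity of mTORC1, a kinase that controls several of these steps through the proteins 4E-BP, S6K and LARP1.

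The translation factors were abundant transcripts: their control levels ran from 11.2 TPM for EEF2K to 9170 TPM for EEF1A1, with a median of 297 TPM, above 96.4% of the measured genes. Differences between the libraries were small. None of the 46 was higher or lower by 2-fold on the log2(TPM + 1) scale, on which 1.51% of all measured genes were higher and 1.24% lower by that much. At a difference of 0.32 on that scale, which is 25% higher or 20% lower, 5 members were higher, against 13.7% of measured genes, and 5 were lower, against 22.1%. On the higher side the members' share lay on either side of the background with the setting, at 6 of 46 against 12.9% with FPKM, and it is not a result about them. In all, 20 members (43.5%) lay above 0, against 40.3% of measured genes, and the median difference, metformin minus control, was -0.02 for the members and -0.08 for all measured genes. The members' median turned positive with FPKM, coverage, either other scaling or the GC and length trend removed, so its sign carries no direction. Among 1926 genes at 100 TPM or more in at least 1 library, the class nearest to the members in level, the median was also -0.08.

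**Figure D1:**
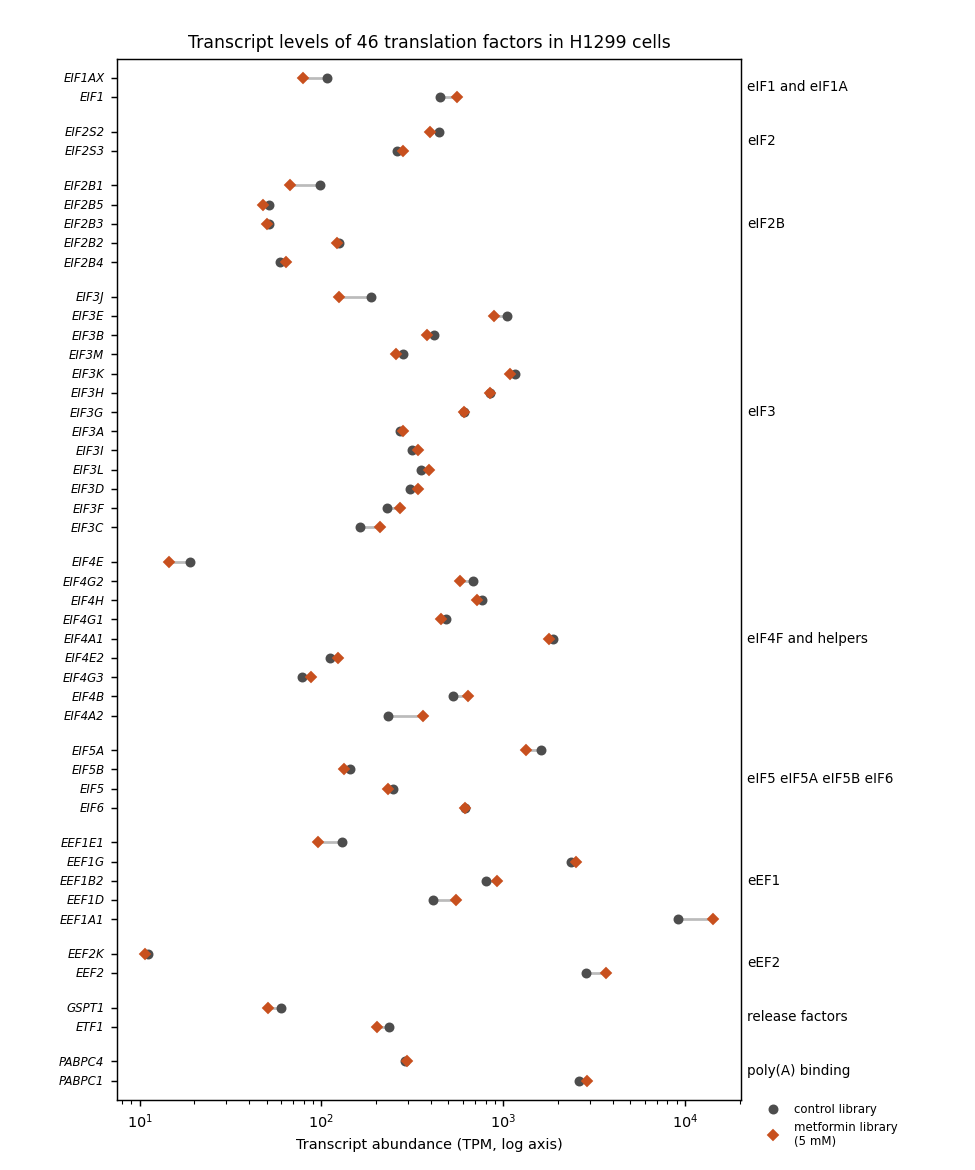
Transcript level of each of the 46 genes in TPM on a log axis, 1 row per gene grouped by factor, with a circle for the control library and a diamond for the metformin library. EEF1A1 stands at the right end at 9170 and 14203 TPM, and most pairs of symbols nearly coincide.

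As a group the factors differed little. Ranked by difference among the 46, EEF1A1, EEF1D and EEF2 were at places 1, 3 and 4, and EEF1B2 and EEF1G at 9 and 15. EEF1A1, which encodes eEF1A, the carrier of aminoacyl-tRNA, was at 9170 TPM without and 14203 TPM with metformin, a ratio of 1.55 (95% counting interval 1.54 to 1.56). It lies on chromosome 6 at 74225473 to 74230755 of hg19, on the minus strand. The gene has many processed pseudogenes, and how shared reads were assigned is unknown, so its level is uncertain to that extent. The summed level of all 46 genes was 34190 TPM in control and 40201 in metformin, 3.42% and 4.02% of the library, a ratio of 1.18. EEF1A1 made up 83.7% of that gain, and without it the sum was 25019 and 25998 TPM, a ratio of 1.04. The 35 initiation factors summed to 15248 and 14770 TPM, a ratio of 0.969.

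Many mRNAs of the translation machinery share a 5′ terminal oligopyrimidine tract (TOP): they begin with C followed by a run of C and T, and LARP1 and mTORC1 control their translation and stability through it. From general knowledge 11 of the 46 genes were listed as TOP mRNAs. Of these, 9 (81.8%) lay above 0, with a median difference of 0.20. Of the 35 other members 11 (31.4%) lay above 0, against 40.3% of all measured genes. The median of those 35 was -0.08, equal at this rounding to that of all measured genes. All 5 elongation factor genes of the TOP list (EEF1A1, EEF1B2, EEF1D, EEF1G and EEF2) were among the 9, with a median of 0.36. The other 6 TOP members had a median of 0.10. With the GC and length trend removed these medians were 0.22 and 0.15. EIF3E at -0.24 and EIF3H at -0.01 were the TOP members below 0. The summed level of the TOP members was 21145 TPM untreated and 27692 treated, a ratio of 1.31, or 1.13 without EEF1A1. The other members summed to a ratio of 0.959. The TOP list had a median GC content of 44.8%, against 47.8% for the other members. Its 5 elongation factor genes had a median GC content of 54.5% and the other 6 of 41.7%. The median difference of the whole list was 0.20 also once the trends with GC content and length were taken out. The part of base composition in these values was not tested.

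RefSeq start sites gave another view of the same feature, drawn without the list but covering some of the same genes. Sequences around an annotated start were found for 37 of the 46 genes in the RefSeq table (GRCh38.p14). In 21 of the 37, at least 1 annotated start had a C followed by 4 or more C or T on the coding strand within 10 bases, a run seen in 36.6% of the 10898 measured genes with a sequence, counted in the same way, and at 28.2% of all 35116 promoters in the table. Of those 21 genes, 12 lay above 0, with a median difference of 0.14, and of the 16 without it 3 did, with a median of -0.12. The share of all measured genes above 0 was 40.3%. A stricter form of the run, chosen after seeing the data, asked that it begin at the start itself. This form was met by 10 of the 37 members (27.0%), by 7.21% of measured genes, by 4.07% of all promoters and by 47 of 63 cytosolic ribosomal protein genes (74.6%). Of the 10 members, 8 lay above 0 with a median of 0.23, and of the other 27, 7 did with a median of -0.10. Of the 6 genes of the TOP list with a sequence, 5 had the run in either form. The contrast by run thus partly repeats that by list. The members with the run had 1.1 annotated starts per gene and those without it 1.56. The run alone did not go with as large a difference elsewhere: the 786 measured genes that have it had a median of -0.05, and the 10112 without it -0.09.

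The windows below show 10 bases before and 20 after a RefSeq start, 5′ to 3′ on the coding strand, with the pyrimidine run at the start in capitals. They are shown for 6 of the 8 genes with a run and a higher level in metformin, for 2 genes with a run that were not higher, and for 4 genes without it. Of the 27 members without a run at the start itself, 7 lay above 0, including EIF3C at 0.36 and EIF1 at 0.30, not shown. EIF3C, EIF1 and EIF3J, the last the lowest member at -0.59, have a run near the start only.
EEF1A1, chr6:73521013-73521042, minus strand: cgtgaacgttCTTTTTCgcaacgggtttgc
EIF4A2, chr3:186783567-186783596, plus strand: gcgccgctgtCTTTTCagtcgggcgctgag
EEF2, chr19:3985444-3985473, minus strand: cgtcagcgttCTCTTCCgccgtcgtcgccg
EIF4B, chr12:53006446-53006475, plus strand: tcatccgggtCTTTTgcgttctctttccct
EIF3F, chr11:7987327-7987356, plus strand: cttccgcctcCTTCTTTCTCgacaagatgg
EEF1B2, chr2:206159885-206159914, plus strand: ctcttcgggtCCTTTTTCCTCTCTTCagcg
EIF3K, chr19:38619178-38619207, plus strand: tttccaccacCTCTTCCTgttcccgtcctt
EIF3M, chr11:32583821-32583850, plus strand: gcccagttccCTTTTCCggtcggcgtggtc
EEF1G, chr11:62573872-62573901, minus strand: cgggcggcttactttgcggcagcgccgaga
EEF1E1, chr6:8102529-8102558, minus strand: tgcaggtctcgcgtctgccaggagctacgg
EIF2B1, chr12:123633667-123633696, minus strand: gtacggaagtgcgccggaagtggggtgcgg
EIF1AX, chrX:20141819-20141848, minus strand: gagtcgcggcgccatttgctgccgccgagc

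The run was longest in EEF1B2, with 16 pyrimidines, and shortest of those shown in EIF4B, with 5. EEF1B2 has another RefSeq start, without a run. EEF1G is on the TOP list but its annotated start has no run in this window. EIF4A2 is not on the list and has a run of 6, and its difference of 0.63 was next to that of EEF1A1. EIF3K and EIF3M have runs of 8 and 7 and differences of -0.08 and -0.12. Both signs turned under another setting, to 0.007 for EIF3K with the libraries centred on the median gene and to 0.07 for EIF3M with the GC and length trend removed.

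Promoters, here 250 bases before to 50 after a start, were also searched on both strands for other motifs. The letters CACGTG, the E-box bound by MYC, were in 8 of the 37 members (21.6%) and in 12.7% of the 10898 measured genes with a sequence. Of the 8 members with it, 2 lay above 0, with a median of -0.07, and 13 of the 29 without it did, with a median of -0.03. Of all measured genes, 40.3% lay above 0. The letters TGATGNAA, a form of the element bound by ATF4 with C/EBP partners, were in none of the 37 members and in 2.59% of the measured genes.

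**Figure D2:**
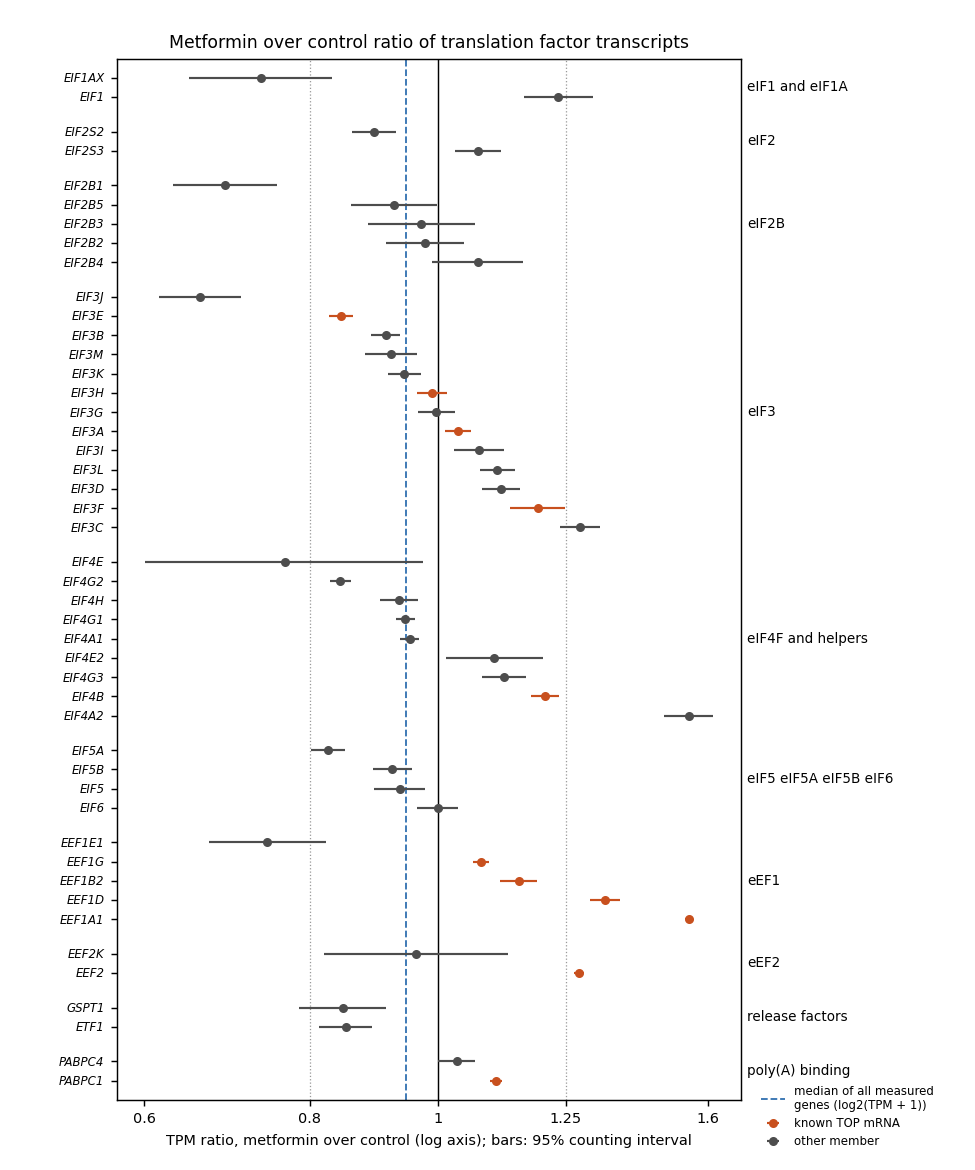
Ratio of TPM in metformin to control for each of the 46 genes on a log axis, grouped by factor, with bars for the 95% counting interval, a dashed line at the median of all measured genes and dotted lines at 25% higher and 20% lower. TOP mRNAs are coloured; EEF1A1 and EIF4A2 stand at 1.55 and EIF3J lowest at 0.661.

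The small factors that open the start-site scan differed in opposite directions. EIF1, which enforces the choice of the start codon, was at 450 TPM in the control and 555 in the treated library, a ratio of 1.23 (1.16 to 1.31) that left it just under the 25% threshold. EIF1AX, which encodes eIF1A, had 107 and 78.7 TPM, for a ratio of 0.735 (0.649 to 0.832). The intervals of the genes did not overlap.

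Subunits of eIF2, the carrier of the initiator tRNA, did not share a direction. EIF2S2, the beta subunit, stood at 442 and 396 TPM, a ratio of 0.895 (0.862 to 0.929). EIF2S3, the gamma subunit that binds GTP, had 262 and 281 TPM, for a ratio of 1.07. EIF2S1, the alpha subunit that stress kinases phosphorylate and not one of the 46 genes, stood at 165 and 138 TPM, a ratio of 0.832 (0.780 to 0.888).

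In eIF2B, the exchange factor of eIF2, a single subunit was apart from the others. EIF2B1, the alpha subunit at the core of the regulatory part, was at 97.9 TPM in untreated cells and 67.5 in treated cells, a ratio of 0.690 (0.630 to 0.755). The remaining 4 subunits lay between 0.927 and 1.07. EIF2B2, EIF2B3 and EIF2B4, which encode the beta, gamma and delta subunits, had intervals that included 1, and EIF2B5, the catalytic epsilon subunit, was at 51.6 and 47.8 TPM with an interval of 0.860 to 0.999. The median of the 5 was -0.04, and it turned to 0.05 with the libraries centred on the median gene. EIF2B1 overlaps GTF2H3 on the opposite strand; GTF2H3 was listed at 38.3 and 39.7 TPM, and the sources used here do not say if reads were assigned by strand. In all, 6 members overlap a gene on the opposite strand, the others being EIF3G, EIF3I, EIF3J, EIF4A2 and EIF4E2.

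The 13 subunits of eIF3, the scaffold of the initiation complex, differed little as a set. Of them 6 lay above 0 and 7 below, while 40.3% of all measured genes lay above 0. The median of the 13 was -0.003, which turned to 0.03 with FPKM and 0.09 with the libraries centred on the median gene. Their summed level was 6187 TPM untreated and 6024 treated, a ratio of 0.974. The listed levels of single subunits spanned a wide range, from 164 TPM for EIF3C to 1156 for EIF3K in control. The EIF3C value and the sum leave out the 468 TPM listed in control for EIF3CL, a near-identical copy of EIF3C.

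At the low end of eIF3 was EIF3J, a loosely bound subunit that helps eIF3 attach to the small ribosomal subunit. It was at 188 TPM without and 125 TPM with metformin, a ratio of 0.661 (0.615 to 0.710), the lowest of the 46 genes. It overlaps SPG11 on the opposite strand, listed at 19.2 and 24.7 TPM. EIF3E was next among eIF3 genes at 1050 and 888 TPM, a ratio of 0.845 (0.827 to 0.863). Its GC content is 37.2%, and with the GC and length trend removed its difference was -0.03 in place of -0.24. EIF3B and EIF3M were at 0.913 and 0.922, and EIF3K at 0.944.

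EIF3G and EIF3H were within 1% of their control level, at 609 and 607 TPM and at 849 and 841 TPM, with intervals that included 1. EIF3A, the largest subunit and a base of the complex, had 271 and 280 TPM, for a ratio of 1.04. EIF3I, EIF3L and EIF3D, the last of which can bind the cap of some mRNAs, were at 1.07, 1.11 and 1.12. EIF3F stood at 229 and 272 TPM, a ratio of 1.19.

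EIF3C had the highest ratio of the complex, 1.28 (1.24 to 1.33), at 164 and 210 TPM, but its value is uncertain. EIF3CL is a near-identical copy, both IDs are listed at each of 2 places on chromosome 16, and the way reads were divided between them is unknown. EIF3CL had 468 and 503 TPM, for a ratio of 1.07. The sum of both IDs was 632 and 713 TPM, a ratio of 1.13, or 0.17 on the log2(TPM + 1) scale. The sum lies under the 25% threshold that EIF3C alone passed.

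In eIF4F, the complex of the cap-binding protein eIF4E, the scaffold eIF4G and the RNA helicase eIF4A, the helicase genes went apart. EIF4A1, the main helicase, was at 1874 TPM in the control and 1785 in the treated library, a ratio of 0.953 (0.937 to 0.968). EIF4A2, its close paralogue, stood at 233 and 360 TPM, a ratio of 1.55 (1.48 to 1.61). The level of EIF4A2 relative to EIF4A1 was thus 0.124 in control and 0.202 in metformin. EIF4A2 lies on chromosome 3 at 186501361 to 186507685 of hg19, and RFC4, which overlaps it on the opposite strand, was listed at 127 and 90.4 TPM, lower in metformin where EIF4A2 was higher.

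EIF4E, the cap-binding protein, was the factor of initiation with the lowest level, at 19.0 TPM in untreated cells and 14.5 in treated cells. Its ratio of 0.766 rested on an estimated 150 and 130 read pairs, with an interval of 0.601 to 0.975. Its transcript also has a GC content of 34.5%, and without the GC and length trend its difference was -0.07 in place of -0.36. EIF4E2, a cap-binding homologue that represses translation of some mRNAs, had 112 and 123 TPM, for a ratio of 1.10.

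The scaffold genes were spread around 1. EIF4G1, the main scaffold, was at 0.945 of control, with 484 and 458 TPM. EIF4G2, also called DAP5, which lacks the eIF4E-binding site and serves cap-independent initiation, was at 686 and 579 TPM, a ratio of 0.844 (0.828 to 0.860). EIF4G3 was at 78.0 and 87.5 TPM, a ratio of 1.12. Of the helpers of the helicase, EIF4B, a target of S6K, stood at 528 and 637 TPM, a ratio of 1.21 (1.18 to 1.23), and EIF4H at 769 and 719 TPM, a ratio of 0.935. The 9 genes had a median of -0.07, which turned to 0.02 when the libraries were centred on the median gene.

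The 4 genes EIF5, EIF5A, EIF5B and EIF6 had differences below 0, as did 59.7% of measured genes, though that of EIF6 was only -0.00035. The signs of EIF5 and EIF5B turned with the GC and length trend removed, to 0.02 and 0.06, and that of EIF6 with FPKM, coverage and either other scaling. EIF5, which stimulates GTP hydrolysis by eIF2, was at 0.936 of control, and EIF5B, which joins the ribosomal subunits, at 0.924. EIF6, which keeps the large subunit from joining too early, was at 619 TPM in each library. EIF5A, the only known protein with the amino acid hypusine and a helper of elongation and termination, had 1620 and 1337 TPM, for a ratio of 0.825 (0.801 to 0.850). It was the member just short of the 20% threshold on the lower side, and it passed it with the GC and length trend removed, at -0.39.

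Among the genes of eEF1, the 4 subunits of the elongation complex were all higher in the metformin library. Beside EEF1A1, the exchange factor subunit EEF1D stood at 409 and 547 TPM, a ratio of 1.34 (1.30 to 1.37). EEF1B2, the other exchange subunit, was at 807 and 929 TPM, a ratio of 1.15, and EEF1G, the structural subunit, at 2348 and 2531 TPM, a ratio of 1.08. With the GC and length trend removed the difference of EEF1G was 0.02 in place of 0.11. The spread within the complex was such that EEF1A1 was at 11.4 times the level of EEF1B2 in control and at 15.3 times in metformin. EEF1A2, the paralogue of EEF1A1 known from muscle and neurons, had 188 and 247 TPM, for a ratio of 1.32 (1.26 to 1.38).

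EEF1E1, which carries the eEF1 name but encodes AIMP3, a scaffold protein of the multi-tRNA synthetase complex, went the other way. It was at 130 TPM without and 96.3 TPM with metformin, a ratio of 0.743 (0.671 to 0.823). The median of the 5 genes was 0.20. The read-through model EEF1E1-BLOC1S5 was at 1.3 TPM or less in both libraries.

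EEF2, the translocase, was at 2860 TPM in the control and 3660 in the treated library, a ratio of 1.28 (1.27 to 1.29). EEF2K, the kinase that inhibits eEF2 and is itself restrained by mTORC1 through S6K and activated by AMPK, was at 11.2 and 10.7 TPM, with an interval of 0.820 to 1.13. Both release factors were lower: ETF1, which encodes eRF1 and reads the stop codon, at 237 and 202 TPM, and GSPT1, its GTPase partner eRF3a, at 59.7 and 50.6 TPM. Their ratios were 0.852 and 0.847, and with the GC and length trend removed their differences were -0.13 and -0.14 in place of -0.23 each. The poly(A)-binding proteins, which join the mRNA tail to eIF4G, were higher by a little. PABPC1 stood at 2623 and 2904 TPM, a ratio of 1.11 (1.10 to 1.12), and PABPC4 at 287 and 297 TPM, a ratio of 1.03. The difference of PABPC4 turned from 0.05 to -0.03 with the GC and length trend removed.

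**Figure D3:**
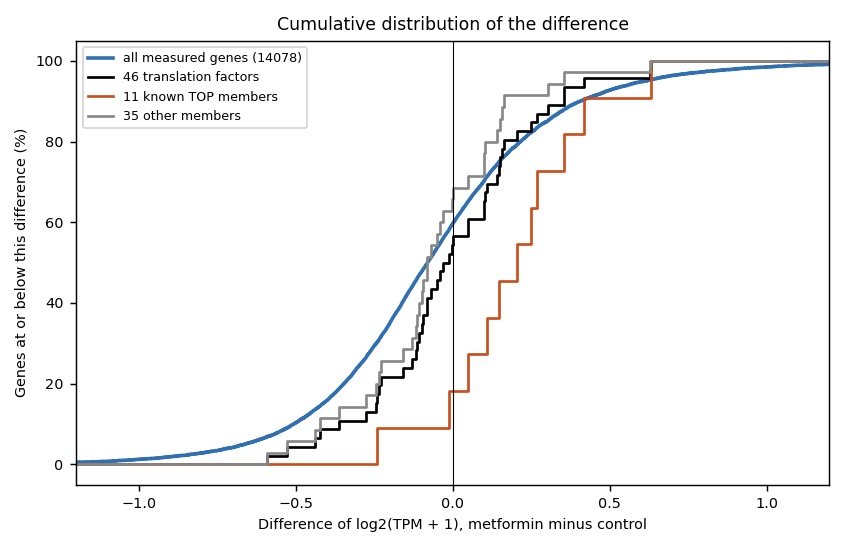
Cumulative percentage of genes (vertical axis) at or below each difference of log2(TPM + 1), metformin minus control (horizontal axis), for all measured genes, the 46 factors, the 11 TOP members and the other 35. The curve of all 46 is steeper than that of all genes, and the TOP curve lies to the right, with 9 of 11 genes above 0.

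The members at either end differed in base composition. The 5 lower by 20% or more (EIF3J, EIF2B1, EIF1AX, EEF1E1 and EIF4E) had GC contents of 34.5% to 44.8%, with a median of 36.4%, and the 5 higher by 25% or more (EEF1A1, EIF4A2, EEF1D, EEF2 and EIF3C) 40.4% to 64.6%, with a median of 54.8%. Over 13185 measured genes the difference and GC content had a Spearman correlation of 0.35 across genes, which share the same libraries, and over the 46 members it was 0.36. With the GC and length trend removed, EIF3J stood at -0.39, EIF2B1 at -0.48, EIF1AX at -0.17, EEF1E1 at -0.19, EEF1D at 0.24 and EEF2 at 0.22. EEF1A1 and EIF4A2, both of lower GC content than the median gene, stood at 0.72 and 0.76. The part of base composition in each value was not tested.

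Around the factors themselves, proteins that regulate or modify them were examined from lists of related genes. Of the regulators of eIF4F and of the poly(A)-binding protein, 7 of 12 measured genes lay above 0, against 40.3% of all measured genes. The median of the 12 was 0.02, or -0.08 without the GC and length trend. MKNK2, a kinase that phosphorylates eIF4E, was at 101 TPM in untreated cells and 200 in treated cells, a ratio of 1.98 (1.87 to 2.09), just outside the 2-fold rule. EIF4EBP1, the repressor of eIF4E known as 4E-BP1, was at 246 and 299 TPM, a ratio of 1.21. Its level was 13.0 times that of EIF4E in control and 20.6 times in metformin, though the EIF4E value rests on few reads. PAIP2, a repressor of the poly(A)-binding protein, was at 0.689 of control, and NCBP2, a subunit of the nuclear cap-binding complex, at 0.725.

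Enzymes that modify translation factors had a median difference of -0.21, with 12 of 14 measured genes below 0, against 59.7% of all measured genes. The counting interval lay below 1 for 5 of the 14 (DPH1, DPH2, DOHH, EEF1AKMT2 and METTL13) and included 1 for the other 9. In the diphthamide pathway, which modifies a histidine of eEF2, DPH1 had 55.7 and 34.9 TPM, for a ratio of 0.626 (0.564 to 0.694), while DPH7 was within 1% of control, at 35.1 TPM in treated cells. DOHH, the enzyme that completes hypusine on eIF5A, was at 24.4 and 17.9 TPM, a ratio of 0.733, and DHPS, the enzyme before it, at 88.8 and 93.1 TPM. The median of the list was -0.12 without the GC and length trend.

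Of 6 recycling and reinitiation factors, 4 lay below 0, against 59.7% of all measured genes. Their median was -0.19, or -0.10 without the GC and length trend, and the counting interval included 1 for 2 of the 6. ABCE1, which splits ribosomes after termination, stood at 77.3 and 53.9 TPM, a ratio of 0.698 (0.649 to 0.750), and MCTS1, a partner of DENR in reinitiation, had a ratio of 0.662 (0.466 to 0.937). PELO, which rescues stalled ribosomes, was at 16.2 and 19.5 TPM, a ratio of 1.21, and ABCF1, an ATPase that aids initiation, at 149 and 154 TPM. Further factors had a median of -0.09 over 10 measured genes. Besides EEF1A2 and EIF2S1, EIF2D, which can load the initiator tRNA without eIF2, was at 58.7 and 68.2 TPM, and EIF5A2, the paralogue of EIF5A, at 14.4 and 11.5 TPM with an interval that included 1.

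For comparison, 67 of 79 cytosolic ribosomal protein genes, nearly all of which are known TOP mRNAs, lay above 0, against 40.3% of measured genes. The median of the 79 was 0.09, against -0.08 for all measured genes and 0.20 for the TOP members. The summed level of the ribosomal protein genes was 17.6% of the library in control and 19.2% in metformin on the TPM scale. No test of the difference between these lists was possible.

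**Figure D4:**
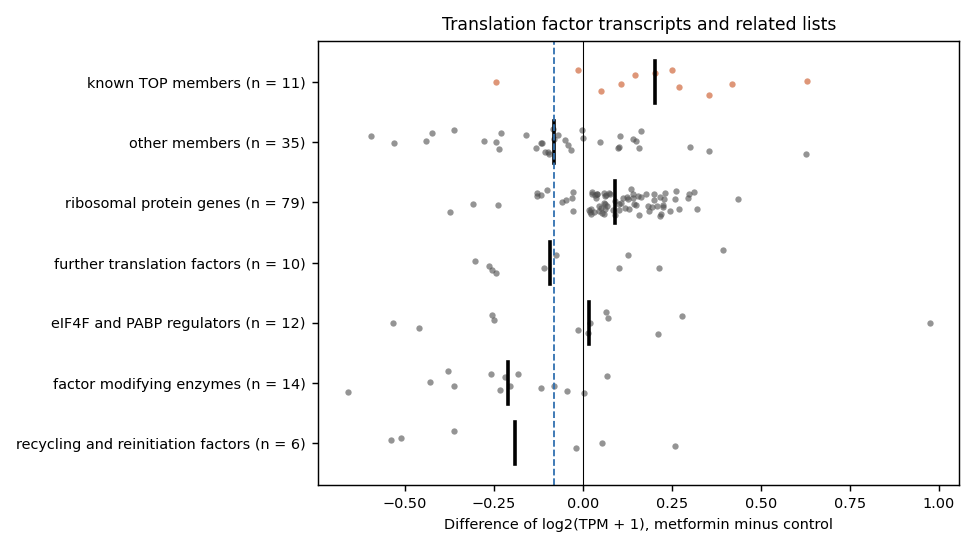
Difference of log2(TPM + 1), metformin minus control, of each measured gene (points, spread vertically for view) in 7 lists, with a black bar at the median of each list and a dashed line at the median of all measured genes. TOP members and ribosomal protein genes lie mostly right of 0, and enzymes that modify the factors mostly left.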

How the data were processed

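One library per group was compared, control against metformin. Per the labels' protocols, libraries came from a stranded mRNA kit and reads were mapped to hg19 with Bowtie2. Trimmomatic 0.38 and HISAT2 are among the tools listed, per the submitters' processing notes; which program computed abundances, the sources used here do not say. TPM was computed by the authors and used for all main values. FPKM was deposited too and served as an alternative. Coverage was deposited as a depth per gene; its largest ratio to FPKM gave the aligned bases (5.80 and 6.40 Gb), at 202 bases a pair.

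Symbols came from a RefSeq gene table (27559 IDs matched, 126 not), and rows of an ID were summed. Read pairs per gene used FPKM and the coding length of the canonical GENCODE 44 transcript, which undercounts pairs and widens the exact (Clopper-Pearson) intervals. The difference was log2(TPM + 1), metformin minus control, which understates differences of low genes. Named genes were all members, EIF2S1, and, per related list, the 2 highest and 2 lowest at 5 TPM or more. Members and lists were chosen with earlier results of these data known. Only the fold rules were tested on simulated data, in libraries with known folds planted. The counting intervals, the removal of the GC and length trend, the lists and the motif search were not tested in this way. Python 3.11.15 and scipy 1.17.1 were used.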

Additional observations from a re-analysis of the deposited data

How the results depend on the processing

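Results were recomputed under 9 other settings (FPKM, coverage, pseudocounts of 0.1 and 5, centring on the median gene, trimmed mean scaling, removal of the GC and length trend, 1 entry per repeated ID, no minimum TPM). No member was past 2-fold under any of them, and 33 of the 46 members kept their sign under all 9. The sign turned under at least 1 for EEF2K, EIF2B2, EIF2B3, EIF3G, EIF3H, EIF3K, EIF3M, EIF4A1, EIF4G1, EIF5, EIF5B, EIF6 and PABPC4. Centring on the median gene moved the count above 0 from 20 to 29 of 46, while the share of all measured genes went from 40.3% to 51.2%. It moved the count at least 25% higher to 8 of 46, against 18.9% of all measured genes. It gave medians of 0.068 for all members, 0.087 for eIF3, 0.021 for eIF4F and helpers, 0.29 for eEF1, 0.018 for the remaining factors, 0.29 for TOP members, 0.0095 for the other 35, 0.23 for members with a pyrimidine run near the start and -0.031 for those without. Trimmed mean scaling gave 0.046 for all members, 0.065 for eIF3, -0.0014 for eIF4F and helpers, 0.27 for eEF1, -0.0042 for the remaining factors, 0.27 for TOP members, -0.013 for the others and 0.21 for members with the run. With the GC and length trend removed, 3 of 46 members were at least 20% lower, against 20.2% of 13185 measured genes. They were EIF2B1, EIF3J and EIF5A, the last in place of EIF1AX, EEF1E1 and EIF4E. In the same setting 4 were at least 25% higher, against 11.5% of measured genes. They were EEF1A1, EIF4A2, EIF1 and EIF3F, the last 2 in place of EEF1D, EEF2 and EIF3C. The eIF3 median was then 0.069. FPKM moved the TOP median to 0.24, and coverage moved it and that of eEF1 to 0.26. With the run at the start itself, chosen after seeing the data, the median was 0.23. The median of TOP members lay above that of the other 35 under all 9, and the cause of the shifts was not tested. Depth limits EIF4E and EEF2K most, at 150 and 296 estimated read pairs in control. No paired analysis was possible because each group has 1 library.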

Other observations

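Several members host small nucleolar RNAs in their introns, which guide the modification of ribosomal RNA. Inside EIF4A2, whose own ratio was 1.55, 5 such RNAs were all lower in metformin, as were 59.7% of all measured genes. SNORD2 was at 37.3 TPM without and 21.6 TPM with the drug, SNORA4 at 37.4 and 20.5, SNORA63 at 25.5 and 16.6, SNORA63B at 15.8 and 8.63 and SNORA81 at 7.18 and 4.19, with ratios from 0.546 to 0.650. Inside EIF4A1, SNORA67 was listed at 41.4 and 44.1 TPM, and SNORD10 at 5.88 and 11.9. Other hosts had both directions, so lower values were not particular to EIF4A2. SNORA55 in PABPC4 was at 5.93 and 4.12 TPM and SNORA41 in EEF1B2 at 1.59 and 0.79. SNORD97 in EIF4G2 was at 2.20 and 2.94 TPM and SNORD37 in EEF2 at 1.69 and 1.81. Libraries of selected mRNA hold few of these short RNAs, they can share reads with each other and with the host, and the values have no replicate check.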
